A study of Mus musculus with 24 samples.

Results

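The 9 genes described here, Mbp, Mog, Mag, Mobp, Cnp, Cldn11, Opalin, Ugt8a and Mal, are genes of mature oligodendrocytes that serve the myelin sheath. They were chosen by name, as the rows with these symbols among the 33000 genes of a 3'Pool-seq count table, and each symbol had 1 row. In 3'Pool-seq, each RNA is tagged at its 3' end during reverse transcription, samples are pooled, and reads from the 3' ends of transcripts are counted. The RNA came from the frontal cortex of C57BL/6 mice aged 3 months, 3 wild type (WT) and 3 homozygous for GFAP-IL6, a transgene in which the astrocyte promoter of GFAP drives the cytokine gene Il6. The labels name no treatment of either genotype. From the RNA of each mouse 4 libraries were made, with 2 ng or 1 ng of cDNA put into tagmentation, once in a set A and once in a set B. How the sets differ is not stated in the labels. The question put to the 9 genes was whether their RNA differed between the genotypes, and how far single mice and libraries of a mouse differed in it. The cortex held RNA of all 9 genes and of 24 further mature oligodendrocyte genes, in each of the 6 mice.

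Oligodendrocytes wrap axons of the central nervous system in many layers of membrane, and the compacted layers insulate the axon between the nodes. The sheath is rich in galactolipids and in a small number of proteins that seal its faces together, line its channels or touch the axon. Transcription of these genes starts late in the maturation of the cell, under Sox10 and Myrf, and most of them therefore mark the mature, myelinating stage.

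Promoter windows were read to show the sequence next to which the transcripts of these genes start, and 3 are printed. Mobp is shown for the spread of its level between mice, Opalin because its profile over the mice was the least like that of Mobp, and Cnp because its profile was the closest to that of Mbp. Sequences are from RefSeq on GRCm38.p6, the 250 bases before the annotated start, 5' to 3' on the strand of the gene. Capitals mark ACAAAG, the core bound by SOX factors, or CTTTGT where it lies on the other strand. The windows are chr9:120149492-120149741 on the plus strand for Mobp, chr11:100574689-100574938 on the plus strand for Cnp and chr19:41077114-41077363 on the minus strand for Opalin.
Mobp: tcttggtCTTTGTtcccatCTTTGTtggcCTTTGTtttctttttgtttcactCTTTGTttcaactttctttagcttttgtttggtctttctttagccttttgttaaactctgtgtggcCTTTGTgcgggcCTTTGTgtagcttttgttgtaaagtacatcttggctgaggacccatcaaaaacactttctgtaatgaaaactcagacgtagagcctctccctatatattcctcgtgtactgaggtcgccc
Cnp: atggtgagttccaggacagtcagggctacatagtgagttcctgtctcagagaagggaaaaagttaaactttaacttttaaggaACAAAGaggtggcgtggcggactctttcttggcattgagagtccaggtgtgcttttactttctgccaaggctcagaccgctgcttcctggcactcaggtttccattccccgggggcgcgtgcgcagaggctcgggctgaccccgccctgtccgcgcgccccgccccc
Opalin: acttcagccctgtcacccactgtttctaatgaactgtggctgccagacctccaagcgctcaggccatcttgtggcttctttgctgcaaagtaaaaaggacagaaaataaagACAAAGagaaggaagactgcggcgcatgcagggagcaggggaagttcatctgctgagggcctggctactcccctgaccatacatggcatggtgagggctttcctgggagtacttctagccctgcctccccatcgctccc

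The Mobp window held 6 copies of the SOX core, all as CTTTGT, and those of Cnp and Opalin held 1 each. Of 32851 windows of all annotated genes, 1 held 6 or more copies, and it was that of Mobp. Windows were matched for 8 of the 9 genes, with 3 for Mag, and Mbp had no entry. The SOX core was found on either strand in 4 of these 8 genes, Cnp, Mag, Mobp and Opalin. By window, it stood in 5 of their 10, where overlapping windows of Mag count separately, beside 16.5% of all windows. CTGGNAC, the core bound by Myrf, stood in Cnp, Mag and Mog, in 4 of the 10 windows beside 16.1% of all windows. Its last letters can overlap the first of a SOX core. CAGCTG, an E-box that Olig factors can bind, was in 0 of the 8 genes and in 13% of all windows. TTCNNNGAA, the palindrome bound by STAT factors that act downstream of Il6, was in Mag alone among the 8. It stood in 2 of the 10 windows, both of Mag, and in 7.02% of all windows. A match describes letters in a short window.

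Reads counted per library ranged from 1524165 to 12256374, and the sums per mouse from 7852743 to 37582644. The 9 genes had between 63 counts (Ugt8a) and 61895 counts (Mbp) in a single library. Il6 itself was higher in the GFAP-IL6 mice, at 30 to 163 counts a mouse against 0 to 5 in WT, and the astrocyte filament gene Gfap rose by 2.44 on the log2 scale (adjusted p = 1.59e-06). A pair of WT mice stood apart in tissue markers. WT mouse 3 had 4088 CPM (counts scaled to a common library total) summed over 5 choroid plexus genes, led by Ttr at 4038 CPM and Kcnj13 at 19.7 CPM, beside 82.2 to 756.8 CPM in the other mice. WT mouse 2 had 243 CPM summed over 3 striatal neuron genes, among them Ppp1r1b at 209 CPM and Drd1 at 14.9 CPM, beside 126.5 to 167 CPM in the other mice. Results are therefore also given without single mice.

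None of the 9 myelin genes was called different between GFAP-IL6 and WT frontal cortex. With the 4 libraries of each mouse summed, 0 of 9 reached an adjusted p under 0.05 in edgeR's quasi-likelihood test, 0 did so in DESeq2, and 0 had an unadjusted p under 0.05. Of all 14621 genes tested, 1.8% were called in the same comparison. The log2 (Fold-Change) of the 9 genes ran from -0.21 (Opalin) to 0.029 (Mobp and Cldn11), with a median of -0.10 beside -0.0069 over all genes tested. That median rested on single mice, at -0.28 without WT mouse 1 and -0.27 without GFAP-IL6 mouse 3, but 0.059 without WT mouse 2 and 0.018 without GFAP-IL6 mouse 2, and nearer to 0 at -0.041 without WT mouse 3 and -0.050 without GFAP-IL6 mouse 1. Their 95% confidence intervals together spanned -0.56 (the lower bound of Opalin) to 0.51 (the upper bound of Mobp), so each lay inside the DEG threshold of 1 on either side. For all 9, the 3 WT and the 3 GFAP-IL6 mice overlapped. So did most genes tested, of which 14.4% had groups that did not overlap. In whole tissue, fewer oligodendrocytes and less myelin RNA in each of them cannot be told apart. Values below are CPM after TMM scaling, and SD is over n = 3 mice.

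**Figure D1:**
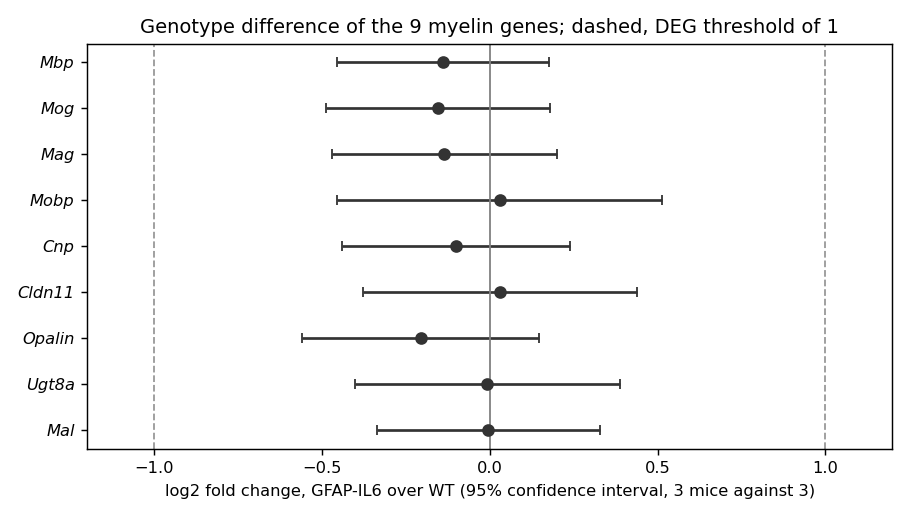
Log2 fold change of GFAP-IL6 over WT (x axis) for each of the 9 myelin genes (y axis), libraries summed per mouse, 3 mice against 3. Points are edgeR estimates and bars 95% confidence intervals. All 9 bars cross 0 and stay between -0.56 and 0.51, inside the dashed lines at a log2 change of 1 on either side.

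Mbp and Mobp encode small basic proteins that bind the cytoplasmic faces of compact myelin to each other. Mbp (ENSMUSG00000041607.14, chr18:82475146-82585637, plus strand of mm10) stood at 3741, 5627 and 4965 CPM in WT mice 1, 2 and 3 and at 4102, 3575 and 5333 CPM in GFAP-IL6 mice 1, 2 and 3. The lowest of the 6 was GFAP-IL6 mouse 2, the highest was WT mouse 2, and the genotypes interleaved. The means were 4778 ± 957 CPM in WT and 4337 ± 902 CPM in GFAP-IL6 (SD, n = 3). The log2 fold change was -0.14 with an SE of 0.148 (adjusted p = 0.882).

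Mobp (ENSMUSG00000032517.13, chr9:120149707-120181484, plus strand) stood at 57.9, 118.5 and 144 CPM in the WT mice and at 93.9, 96.5 and 131 CPM in the GFAP-IL6 mice. WT mice 1 and 3 were the lowest and the highest of the 6, 2.48-fold apart, and the GFAP-IL6 mice lay between them within 1.40-fold. The means were 107 ± 44.1 CPM in WT and 107 ± 20.8 CPM in GFAP-IL6, with a log2 fold change of 0.029, an SE of 0.227 and a 95% interval of -0.46 to 0.51. WT mouse 1 weighed on this value, which was -0.28 without it (adjusted p = 0.556) and 0.29 without WT mouse 3 (adjusted p = 0.747). In the annotation used here, an exon of Mobp overlaps an exon of Gm38642 on the same strand, a gene that is not among the 33000 rows.

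Cnp encodes a cyclic nucleotide phosphodiesterase bound to the myelin membrane, where it keeps cytoplasmic channels open. Cnp (ENSMUSG00000006782.14, chr11:100574904-100591729, plus strand) stood at 336, 543 and 464 CPM in the WT mice and at 385, 345 and 520.3 CPM in the GFAP-IL6 mice. Its order over the mice was close to that of Mbp, with WT mouse 1 and GFAP-IL6 mouse 2 at the bottom and WT mouse 2 at the top. The means were 448 ± 104 CPM and 417 ± 91.8 CPM, and the log2 fold change was -0.10 with an SE of 0.160 (adjusted p = 0.931). Cnp shares exon sequence with Dnajc7 on the opposite strand, whose mean was 44.4 CPM and whose log2 fold change was 0.06 (adjusted p = 0.94). The libraries keep the strand, but the strand setting of the count is not given in the sources used here.

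Mag, Mog and Cldn11 act at the surfaces of the sheath. Mag encodes a sialic acid-binding glycoprotein of the innermost layer, facing the axon. Mag (ENSMUSG00000036634.13, chr7:30899176-30914873, minus strand) stood at 65.6, 101 and 101 CPM in the WT mice and at 84.4, 64.3 and 93.6 CPM in the GFAP-IL6 mice. WT mouse 1 and GFAP-IL6 mouse 2 were alike and lowest, and WT mice 2 and 3 were highest. The means were 89.2 ± 20.5 CPM and 80.8 ± 15 CPM, and the log2 fold change was -0.14 with an SE of 0.157 (adjusted p = 0.89).

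Mog encodes a glycoprotein of the outermost layer and is a known target of autoimmune antibodies. Mog (ENSMUSG00000076439.10, chr17:37010743-37023398, minus strand) stood at 70.8, 106 and 103 CPM in the WT mice and at 88.9, 64.1 and 97.6 CPM in the GFAP-IL6 mice. The same pair of mice as for Mag was lowest. The means were 93.3 ± 19.6 CPM and 83.5 ± 17.4 CPM, and the log2 fold change was -0.15 with an SE of 0.157 (adjusted p = 0.874).

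Cldn11 encodes the claudin of the tight junction strands that run between myelin layers. Cldn11 (ENSMUSG00000037625.7, chr3:31149920-31164324, plus strand) stood at 104, 190.1 and 191 CPM in the WT mice and at 140.4, 143 and 208 CPM in the GFAP-IL6 mice. GFAP-IL6 mouse 3 was highest and WT mouse 1 lowest, 2.0-fold apart. The means were 162 ± 50.0 CPM and 164 ± 38.3 CPM, and the log2 fold change was 0.029 with an SE of 0.191 (adjusted p = 0.99). It became -0.21 without WT mouse 1 (adjusted p = 0.703).

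Opalin encodes a sialylated membrane glycoprotein of oligodendrocytes. Opalin (ENSMUSG00000050121.8, chr19:41061710-41077113, minus strand) stood at 62.9, 85.3 and 77.4 CPM in the WT mice and at 81.6, 45.5 and 69.5 CPM in the GFAP-IL6 mice. GFAP-IL6 mouse 2 stood below all others, and the remaining GFAP-IL6 mice fell within the WT range. The means were 75.2 ± 11.4 CPM and 65.6 ± 18.4 CPM. Opalin had the lowest fold change of the 9, at -0.21 on the log2 scale with an SE of 0.166 and a 95% interval of -0.56 to 0.15 (adjusted p = 0.827), and it was 0.0025 without GFAP-IL6 mouse 2.

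Ugt8a and Mal belong to the lipid side of the sheath. Ugt8a encodes the transferase that adds galactose to ceramide, the step that makes the main galactolipid of myelin. Ugt8a (ENSMUSG00000032854.10, chr3:125865271-125938619, minus strand) stood at 30.3, 46.0 and 44.8 CPM in the WT mice and at 36.9, 29.5 and 52.1 CPM in the GFAP-IL6 mice. The lowest and the highest mouse were both GFAP-IL6. The means were 40.4 ± 8.70 CPM and 39.5 ± 11.5 CPM, and the log2 fold change was -0.0075 with a 95% interval of -0.40 to 0.39 (adjusted p = 0.999).

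Mal encodes a proteolipid of ordered membrane domains that takes part in the transport of membrane to the sheath. Mal (ENSMUSG00000027375.12, chr2:127633226-127656695, minus strand) stood at 149.5, 239 and 256 CPM in the WT mice and at 211, 186 and 243 CPM in the GFAP-IL6 mice. All 3 GFAP-IL6 mice fell within the range of the WT mice. The means were 215 ± 57.1 CPM and 213 ± 28.7 CPM, and the log2 fold change was -0.0047 with a 95% interval of -0.34 to 0.33 (adjusted p = 1).

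**Figure D2:**
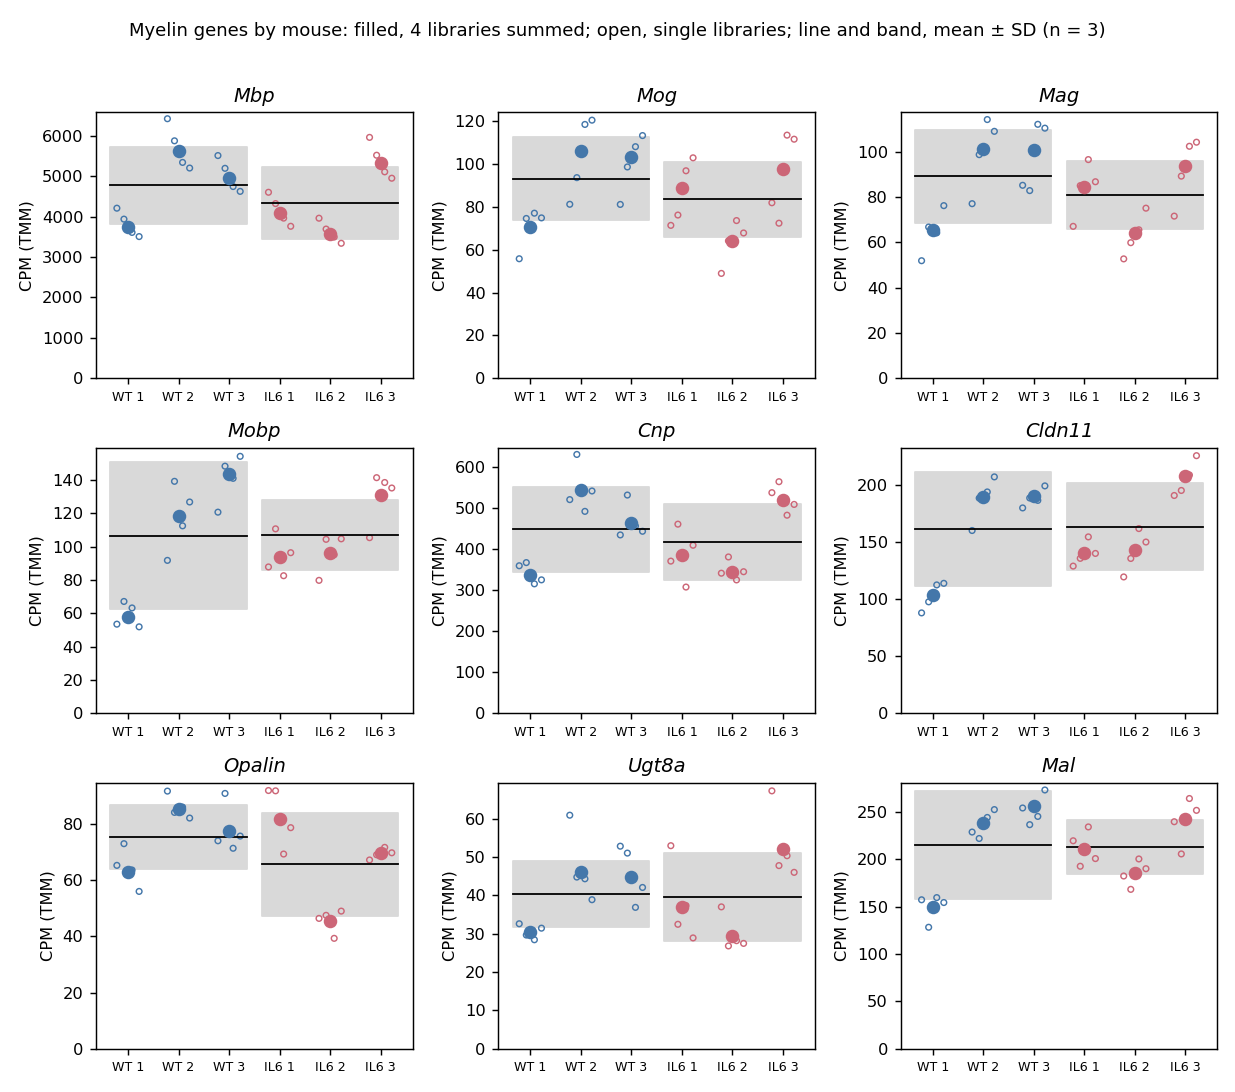
CPM after TMM scaling (y axes, from 0) in each of 3 WT mice (blue) and 3 GFAP-IL6 mice (IL6, red) for the 9 myelin genes. Filled points are the 4 libraries of a mouse summed, open points the single libraries from left to right 2 ng A, 2 ng B, 1 ng A and 1 ng B, and line and band the mean ± SD of n = 3 mice. WT mouse 1 is the lowest of the WT mice for all 9 genes, and the genotypes overlap in each panel.

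The sum over the 9 genes was 4619, 7056 and 6345 CPM in WT mice 1, 2 and 3 and 5224, 4548 and 6748 CPM in GFAP-IL6 mice 1, 2 and 3. WT mouse 1 and GFAP-IL6 mouse 2 formed the low end and the 3 highest mice came from both genotypes. Since Mbp dominates the sum, it was also taken without it, and was then 877, 1429 and 1380 CPM in the WT mice and 1122, 974 and 1415 CPM in the GFAP-IL6 mice, with the lowest pair of mice swapped. The means of the full sum were 6006 ± 1253 CPM in WT and 5507 ± 1127 CPM in GFAP-IL6. The difference between these means was smaller than either SD.

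The mice of 1 genotype differed from each other more in these genes than in most others. The SD of log2 CPM between the 3 mice of a genotype ran from 0.297 (Mbp) to 0.524 (Mobp), with a median of 0.33 over the 9 genes, beside a median of 0.128 over the 8977 genes with a mean of at least 10 CPM. Between 96.3% (Mbp) and 99.8% (Mobp) of those 8977 genes had a smaller SD than the myelin gene in question. The 4 libraries of a mouse were closer to each other than the mice were, with a median SD of 0.148 over the 9 genes, beside 0.212 over genes of at least 10 CPM. So for the myelin genes the spread between mice was above that between libraries, while for the median of genes of that level it was below. The values of the mice are sums of 4 libraries, which lowers their counting error.

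**Figure D3:**
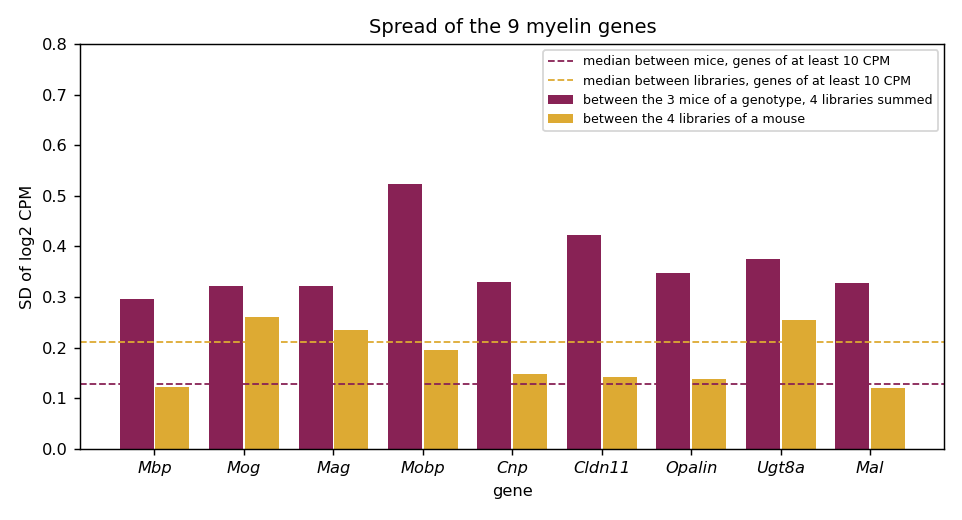
SD of log2 CPM (y axis, from 0) for each of the 9 myelin genes (x axis), between the 3 mice of a genotype with libraries summed (purple) and between the 4 libraries of a mouse (yellow). Dashed lines are the medians over 8977 genes with a mean of at least 10 CPM, 0.128 between mice and 0.212 between libraries, and the purple bars, 0.297 to 0.524, all lie above both.

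The spread was shared among the genes. WT mouse 1 was the lowest WT mouse for 9 of 9 genes, GFAP-IL6 mouse 2 the lowest GFAP-IL6 mouse for 7 of 9, and GFAP-IL6 mouse 1 for the other 2. GFAP-IL6 mouse 3 was the highest of its genotype for 8 of 9 genes, and WT mouse 2 the highest of its own for 6 of 9, with WT mouse 3 taking the remaining 3. As the mean over the 9 genes of log2 CPM relative to the 6-mouse mean, WT mice 1, 2 and 3 lay at -0.41, 0.27 and 0.24 and GFAP-IL6 mice 1, 2 and 3 at -0.040, -0.32 and 0.25. Over the 36 pairs of the 9 genes, Pearson's r of log2 CPM across 6 mice had a median of 0.872, and 0.899 after the genotype means were removed. It ran from 0.43 for Mobp and Opalin to 0.997 for Mbp and Cnp. These correlations describe 6 mice whose values come from shared libraries.

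The low pair of mice came back in each library set, while the highest mouse changed from set to set. Over 36 combinations of gene and set, the lowest mouse was GFAP-IL6 mouse 2 in 18, WT mouse 1 in 17 and GFAP-IL6 mouse 1 in 1. The highest was WT mouse 2 in 13, WT mouse 3 in 11, GFAP-IL6 mouse 3 in 10 and GFAP-IL6 mouse 1 in 2. The sets are repeats of the same RNA, so they repeat the measurement and not the mice.

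**Figure D4:**
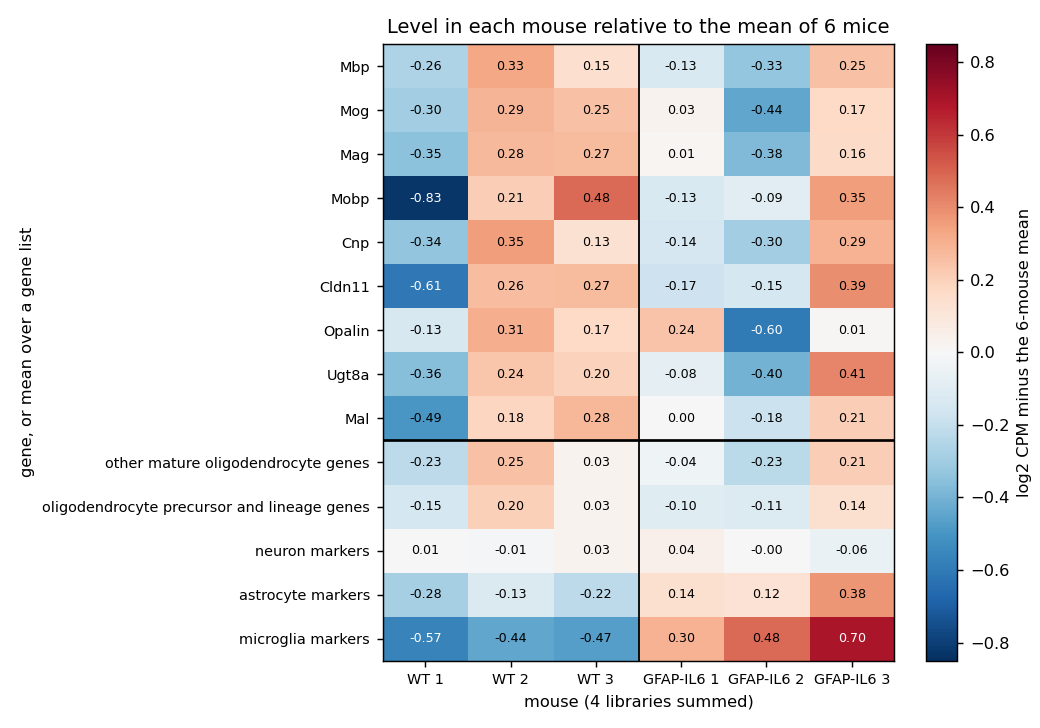
Log2 CPM minus the 6-mouse mean (colour and printed value) for 3 WT and 3 GFAP-IL6 mice (columns), libraries summed. Rows above the line are the 9 myelin genes, rows below it the means of 5 marker lists. WT mouse 1 is below the mean in all 9 genes, down to -0.83 for Mobp. GFAP-IL6 mouse 2 is too, down to -0.60 for Opalin. As means over a list, neuron markers stay within -0.06 and 0.04, beside -0.41 to 0.27 for the 9 myelin genes.

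The myelin genes were also compared between genotypes in each library set, with 1 library a mouse. By edgeR and by DESeq2, 0 of 9 genes were called in any of the 4 sets, where 1.03% (2 ng, set A), 1.08% (2 ng, set B), 1.1% (1 ng, set A) and 1.08% (1 ng, set B) of the genes tested were called by edgeR. One gene in 1 set, Mog with 2 ng in set B, had an unadjusted p under 0.05, with a log2 fold change of -0.31 (adjusted p = 0.562), and its values in the other sets were -0.08, -0.08 and -0.11. Mbp gave -0.15, -0.14, -0.12 and -0.14 in the 4 sets, and Opalin -0.22, -0.27, -0.30 and -0.12 (2 ng A, 2 ng B, 1 ng A and 1 ng B). Mobp and Cldn11 had positive values in all 4 sets, at most 0.11 for Mobp and 0.12 for Cldn11, while Ugt8a and Mal took both signs.

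Within a mouse, the counts of most myelin genes differed between the libraries of 2 ng and of 1 ng, in both directions. In 3'Pool-seq, cDNA is amplified and tagmented in pools of samples, so the 6 mice may share 1 reaction for each amount and set. The p-values set each shift against an error that edgeR estimates largely from all genes. They then do not measure variation between reactions, and an effect of the amount and one of single reactions cannot be told apart. Of the 9 genes, 7 were called between 2 ng and 1 ng with the mouse as a block, where 33.3% of all genes tested and 43.2% of those of at least 10 CPM were called. The 3 that were higher at 2 ng (15.6% of all genes were) were Mbp by 0.19 (adjusted p = 3.45e-57), Cnp by 0.13 (adjusted p = 4.77e-11) and Ugt8a by 0.26 (adjusted p = 3.31e-05) on the log2 scale. The 4 that were lower (17.7% of all genes were) were Mog at -0.41 (adjusted p = 4.85e-23), Mag at -0.34 (adjusted p = 6.72e-16), Cldn11 at -0.21 (adjusted p = 4.91e-12) and Mal at -0.15 (adjusted p = 1.78e-08). Mobp at -0.08 (adjusted p = 0.0639) and Opalin at 0.09 (adjusted p = 0.0937) did not pass. In both sets, 6 of 6 mice had more Mbp at 2 ng than at 1 ng, and 6 of 6 had less Mog, Mag and Cldn11. Mobp went opposite ways, at -0.22 on average in set A but 0.12 in the other set. Ugt8a was higher at 2 ng by 0.413 on average in set A but by 0.097 in set B, there in 4 of 6 mice. Relative to Mbp, Mog and Mag read lower in the libraries of 2 ng than in those of 1 ng of the same RNA.

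Set B against set A, to which the same limit applies, gave 5 calls among the 9 genes, beside 23.3% of all genes tested and 32.6% of those of at least 10 CPM. Mobp by 0.21 (adjusted p = 5.14e-05), Mag by 0.15 (adjusted p = 0.0102) and Cnp by 0.13 (adjusted p = 1.47e-06) were higher in set B, where 11% of all genes were. Mbp at -0.09 (adjusted p = 4.86e-14) and Ugt8a at -0.24 (adjusted p = 0.00555) were lower, where 12.3% of all genes were. Mog, Cldn11, Opalin and Mal did not pass. Most of these differences were smaller in the libraries of 1 ng. The mean difference was 0.39 at 2 ng and 0.06 at 1 ng for Mobp, and 0.25 and 0.04 for Mag. For Ugt8a it was -0.38 and -0.06, for Cnp 0.19 and 0.12, and for Mbp -0.10 and -0.05. Without GFAP-IL6 mouse 3, the most deeply sequenced, 3 of the 9 were called, and Mag (adjusted p = 0.0521) and Ugt8a (adjusted p = 0.0621) were not. The same call for Mag was lost without WT mouse 1 (adjusted p = 0.0835). Both kinds of library were made from every mouse.

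**Figure D5:**
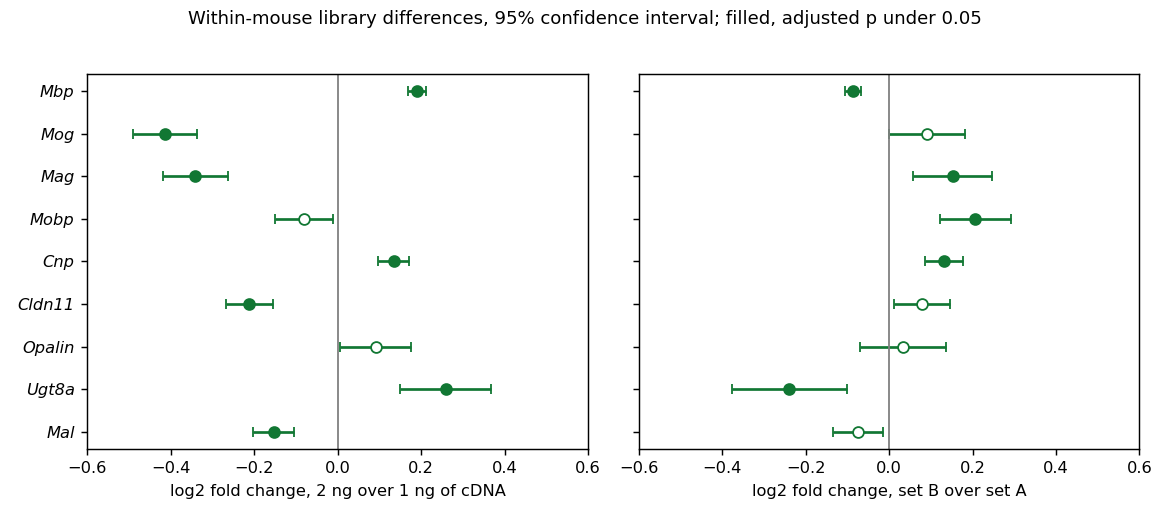
Log2 fold change of 2 ng over 1 ng of cDNA (left x axis) and of set B over set A (right x axis) for the 9 myelin genes (y axis), with the mouse as a block in edgeR over 6 mice. Bars are 95% confidence intervals and filled points have an adjusted p under 0.05. Mog at -0.41 and Ugt8a at 0.26 mark the ends of the left panel, and Ugt8a at -0.24 and Mobp at 0.21 those of the right.

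Whether the genotype difference itself depended on the library was tested as an interaction. None of the 9 genes was called for genotype by cDNA amount or for genotype by set in edgeR, with 0 at an unadjusted p under 0.05 and the smallest adjusted p at 0.999, and 0% of all genes were called in either test. The 95% interval of the difference between the genotype effects at 2 ng and 1 ng was -0.06 to 0.03 for Mbp and -0.28 to 0.04 for Mog. For Ugt8a, the interval of the difference between sets was -0.51 to 0.04.

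As means over a list, other genes of the oligodendrocyte lineage followed the same mice, but not every single gene did. Of 24 further mature oligodendrocyte genes, 0 were called between genotypes in edgeR (1.8% of all genes tested) and 0 in DESeq2, 1 (Pllp) had an unadjusted p under 0.05, and the median log2 fold change was -0.026. Their mean over the mice, relative to the 6-mouse mean, was -0.23, 0.25 and 0.03 in the WT mice and -0.037, -0.23 and 0.21 in the GFAP-IL6 mice, so WT mouse 1 and GFAP-IL6 mouse 2 were again lowest. Omg, in this list, went another way, with WT mouse 1 highest at 199 CPM and GFAP-IL6 mouse 3 lowest at 153 CPM. The pair with the highest CPM, Qdpr and Plekhb1, had log2 fold changes of -0.019 (adjusted p = 0.988) and -0.03 (adjusted p = 0.975). Of 14 genes of precursors and the lineage, 0 were called by either tool and 0 had an unadjusted p under 0.05, Cspg5 at -0.07 (adjusted p = 0.904) and Olig1 at -0.06 (adjusted p = 0.958) among them. The mean of these 14, relative to the 6-mouse mean, was -0.15, 0.20 and 0.03 in the WT mice and -0.10, -0.11 and 0.135 in the GFAP-IL6 mice. Cspg5 did not follow that mean, at 181 CPM in WT mouse 1 and 167 CPM in WT mouse 3. The factors of the promoter motifs, named here after their values were seen, were Sox10 at -0.00075 (adjusted p = 1) and Myrf at -0.21 (adjusted p = 0.923).

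Enzymes of sphingolipid synthesis, the pathway that Ugt8a is part of, gave 1 call of 10, and 2 of the 10 are also in the mature oligodendrocyte list. Degs2, of the dihydroceramide desaturase family, stood at 5.62, 5.6 and 4.46 CPM in WT and at 10.1, 9.69 and 10.7 CPM in GFAP-IL6, a rise of 0.94 on the log2 scale (adjusted p = 0.00504) with no overlap of the groups (14.4% of all genes had none). WT mice 1 and 2 were nearly equal for Degs2 and the GFAP-IL6 mice lay close together, so the order of the mice is not read from it. Of 8 genes of the node and paranode, where the sheath ends meet the axon, 0 were called by either tool, 0 had an unadjusted p under 0.05, and the pair with the highest CPM was Cntn1 at -0.14 (adjusted p = 0.845) and Ank3 at -0.02 (adjusted p = 0.975). Of 6 tested genes of the receptor pathway through which Mag and other myelin proteins act on neurons, 0 were called by either tool and 0 had an unadjusted p under 0.05, with Rtn4 at -0.09 (adjusted p = 0.851) and Omg at -0.17 (adjusted p = 0.708).

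Most microglia markers rose in GFAP-IL6, and the endothelial markers leaned the same way with 2 of 6 called. Few or no markers of the other cell types and no myelin genes were called. Of 10 microglia markers 9 rose, those with the smallest p being Ctss at 1.81 (adjusted p = 8.73e-08), C1qb at 1.46 (adjusted p = 1.41e-06), C1qc at 1.31 (adjusted p = 1.59e-06) and Aif1 at 1.22 (adjusted p = 2.57e-06) on the log2 scale. The remaining marker, P2ry12, did not rise, at -0.018 (adjusted p = 0.985). The summed level of the 10 markers was 748.5 to 809 CPM in WT and 1584 to 2053 CPM in GFAP-IL6. Of 8 astrocyte markers 1, Gfap, was called (2 of the 8 were called without WT mouse 2, in DESeq2 or with no filter on low counts). Aqp4 at 0.52 and Gja1 at 0.27 had an unadjusted p under 0.05 in edgeR but were not called (adjusted p = 0.134 and 0.287). The sum of the astrocyte markers was 1605 to 1741 CPM in WT and 1820 to 2016 CPM in GFAP-IL6. Of 6 endothelial markers 2 were called, Flt1 higher by 0.70 (adjusted p = 0.00637) and Ly6c1 by 0.82 (adjusted p = 0.0142). The median log2 fold change of this list was 0.715. Cldn5 at 0.83, Cdh5 at 0.73 and Slco1a4 at 0.33 had an unadjusted p under 0.05 in edgeR but were not called (adjusted p = 0.113, 0.301 and 0.558). Pecam1 at 0.55 had neither (adjusted p = 0.764). The count of endothelial calls was 0 without WT mouse 2 or without GFAP-IL6 mouse 2. It was 4 without GFAP-IL6 mouse 1, and 1 without WT mouse 1, without GFAP-IL6 mouse 3 or in DESeq2. Of 10 neuron markers 0 were called by either tool and 1 (Nefh) had an unadjusted p under 0.05, Snap25 at -0.02 (adjusted p = 0.981) and Syt1 at -0.16 (adjusted p = 0.741) among them, with sums of 6805 to 7534 CPM in WT and 6447 to 7169 CPM in GFAP-IL6. Of the 5 choroid plexus and the 3 tested striatal neuron markers 0 were called by either tool, 1 (Kl) and 0 had an unadjusted p under 0.05, and without a filter on low counts edgeR called 3 and 1. The part of these cells in the myelin values of single mice was not tested. Without WT mouse 3, highest in the choroid plexus sum, or WT mouse 2, highest in the striatal sum, 0 of 9 myelin genes were called. With 0 called in all mice, these counts cannot show whether such tissue bears on the myelin values. The median log2 fold change of the 9 genes was -0.041 without WT mouse 3 and 0.059 without WT mouse 2, beside -0.10 with all mice.

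Among 8968 other genes of at least 10 CPM, those whose profile over the 6 mice was most like the mean of the 9 myelin genes were found by Pearson's r of log2 CPM. The 6 highest were Ier5l (0.993), Msl1 (0.99), Tnfaip6 (0.989), Zdhhc21 (0.988), Elavl1 (0.976) and Evi2a (0.973). Evi2a is in the list of mature oligodendrocyte genes, and the other 5 are in none of the lists. The size of the change over the mice differed, with a slope against the myelin mean of 0.965 for Tnfaip6 and 0.766 for Evi2a but of 0.2 for Msl1. Tnfaip6, which encodes a secreted hyaluronan-binding protein, stood at 16.7, 25.8 and 24.2 CPM in the WT mice and at 20.5, 16.6 and 25.8 CPM in the GFAP-IL6 mice, low in the same mice as the myelin genes. The 3 lowest were Ift57 (-0.994), Mrpl50 (-0.992) and Mrps9 (-0.987). With 6 mice and 8968 genes, high values of r are found among unrelated genes too. Of the 24 further mature oligodendrocyte genes 18 reached 10 CPM, with a median r of 0.829 beside -0.0086 over all genes considered, and 8 of the 18 were among the 100 highest.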

How the data were processed

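The authors trimmed polyA stretches from 3'Pool-seq reads of 24 libraries, aligned them to mm10 with STAR 2.4, counted reads on GENCODE vM6 genes with featureCounts and deposited raw counts for 33000 genes, without normalization. The labels name a human genome build for these samples, but the study's methods give mm10 for mouse and the gene identifiers are mouse, so mm10 was taken. Groups were taken from the labels. The mouse was the replicate (n = 3 per genotype), and its 4 libraries were summed or tested by set. The labels do not say whether mice shared a litter.

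Counts were tested across all genes that passed filterByExpr with edgeR 4.0.16 in R 4.3.3 (TMM, quasi-likelihood F test, Benjamini-Hochberg adjustment over all genes tested). A gene was called at an adjusted p under 0.05, and a DEG also needed an absolute log2 fold change above 1. SE and 95% intervals come from the F statistic. Contrasts of cDNA amount and set used 12 sums with the mouse as a block, and interactions with genotype were added to them. The study's methods name DESeq2, which was run here as an alternative (DESeq2 1.42.0), with other alternatives from limma 3.58.1, other scalings and filters, and each mouse left out. CPM were TMM-scaled, with a prior count of 1 on the log2 scale. Scripts were tested on simulated data.

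The 9 genes and the marker lists were chosen with earlier results of these data known. All 9 are named. From each other list, up to 4 called genes with the smallest p are named, or the 2 with the highest CPM where none was called. The 6 most and 3 least correlated genes are named too. Depth per mouse of 7852743 to 37582644 counts gave at least 341 counts (Ugt8a, WT mouse 3) for each myelin gene, so the number of mice limits the precision more than counting does. Reads carry no molecular identifiers. Gene positions and overlaps came from GENCODE vM21 on mm10. Promoter motifs were searched on both strands with Python 3.11.15 and pandas 2.3.3, and figures were drawn with matplotlib 3.10.9. One striatal neuron marker is not reported here.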

Additional observations from a re-analysis of the deposited data

How the results depend on the processing

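No myelin gene was called between genotypes under any of 117 alternatives (9 genes under 13 settings), with adjusted p from 0.422 to 1 and log2 fold changes from -0.38 to 0.29. The sign turned in 21 of these. Mal was 0.031 and Ugt8a 0.028 with library totals in place of TMM, and Mal was 0.0025 with at least 10 counts in every mouse and 0.023 with equal weight of the 4 libraries in limma. The median over the 9 genes ran from -0.28 to 0.059 with each mouse left out. In the same settings, the log2 fold change ran from -0.33 to 0.0073 for Mog, -0.32 to 0.0068 for Mag, -0.28 to 0.29 for Mobp, -0.29 to 0.059 for Cnp, -0.21 to 0.16 for Cldn11, -0.38 to 0.0025 for Opalin, -0.28 to 0.17 for Ugt8a and -0.21 to 0.14 for Mal, and for Mbp it stayed negative, from -0.32 to -0.0089. The upper ends for Mog, Mag and Opalin are those without GFAP-IL6 mouse 2, and the lower ends for Mobp, Cldn11 and Mal those without WT mouse 1.

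The mouse numbers shared by the genotypes name different animals, and same-numbered WT and GFAP-IL6 mice did not deviate together (r of -0.05, -0.04 and -0.07 over genes). A replicate block by mouse number left 0 of 9 genes called in the summed libraries and in each set, with Mal at 0.016. Within a mouse, the block does matter. With genotype in place of the mouse (no replicate block), 1 of 9 genes was called between 2 ng and 1 ng, in place of 7, and 0 between the sets, in place of 5. With each mouse left out, 7 to 8 genes were called between cDNA amounts and 3 to 6 between sets, with 3 without GFAP-IL6 mouse 3. Counts of called marker genes moved for the microglia (9, down to 6 without GFAP-IL6 mouse 3), endothelial (2, from 0 to 4) and astrocyte (1, up to 2) lists. They also moved for the choroid plexus (0, up to 3) and striatal (0, up to 1) lists.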
